A study of Mus musculus with 16 samples.

Results

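The RNA of 10 transcription factors that sense fatty acids, drugs, bile acids, aryl hydrocarbons or oxidative stress was followed in mouse livers exposed to perfluorooctanoic acid (PFOA), a long-lived perfluorinated surfactant. The genes were chosen by symbol from the count table, and all 10 were found among its 53465 genes: Ppara, Pparg, Ppard, Rxra, Nr1i2 (the receptor PXR), Nr1i3 (CAR), Nr1h4 (FXR), Hnf4a, Ahr and Nfe2l2 (NRF2). Liver RNA came from 16 C57BL/6 mice in 4 groups of 4: PFOA on control diet (CD_PFOA), PFOA on high-fat diet (HFD_PFOA), vehicle on high-fat diet (HFD_vehicle) and vehicle on control diet (CD_vehicle). The diets were given for 16 weeks before treatment, PFOA or vehicle was then given for 8 weeks, and the mice were 29 to 30 weeks old. The question is whether the factors through which PFOA and dietary fat are read change in amount themselves, on control and on high-fat diet. Neither the PFOA dose nor the animals' sex is given in the sources used here. Each library is a separate mouse, whole liver tissue was used, and the labels name no genetic change in any group.

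PPARA, PPARG and PPARD are nuclear receptors that bind fatty acids and pair with RXRA to switch on genes of fatty acid breakdown, storage and transport. PPARA is the main form in hepatocytes and the classic receptor for peroxisome proliferators, a class that includes PFOA in rodents. PXR and CAR induce cytochrome P450 enzymes, FXR responds to bile acids, and HNF4A maintains the hepatocyte programme. AHR and NRF2 are not nuclear receptors: AHR pairs with ARNT after binding aromatic ligands, and NRF2 is held inactive by KEAP1 until oxidants or electrophiles release it. Many of these proteins are also controlled by ligand binding, location in the cell or turnover, so RNA level and activity are separate quantities, and only RNA was measured.

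In the RefSeq promoter set (GRCm38.p6, 250 bases before to 50 bases after each start), 9 of the 10 genes had a promoter, and these 9 had 13 promoters in all. The regions around a start of the 3 PPAR genes are shown because these genes moved in different directions across the groups. Capitals mark matches on either strand to AGGTCA (the nuclear receptor half-site), GCGTG (the AHR core) and TGACNNNGC (the NRF2 core). Direct repeats of the half-site with a single base between (DR1, the spacing that PPAR and RXR use) or with 4 bases between (DR4) were searched too, and every such repeat also counts as a half-site.
Ppara, chr15:85735526-85735825, plus strand: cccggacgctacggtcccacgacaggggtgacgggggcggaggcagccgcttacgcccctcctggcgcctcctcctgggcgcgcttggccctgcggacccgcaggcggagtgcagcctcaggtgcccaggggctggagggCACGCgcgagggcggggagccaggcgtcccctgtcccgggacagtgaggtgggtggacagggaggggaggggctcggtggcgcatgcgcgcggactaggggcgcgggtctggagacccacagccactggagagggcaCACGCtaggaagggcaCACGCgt
Ppard, chr17:28232504-28232803, plus strand: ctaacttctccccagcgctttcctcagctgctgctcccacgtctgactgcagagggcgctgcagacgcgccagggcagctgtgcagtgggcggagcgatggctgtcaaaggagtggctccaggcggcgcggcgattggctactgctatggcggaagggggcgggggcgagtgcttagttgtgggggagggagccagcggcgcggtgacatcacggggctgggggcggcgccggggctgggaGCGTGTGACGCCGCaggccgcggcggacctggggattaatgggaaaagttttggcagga
Pparg, chr6:115360894-115361193, plus strand: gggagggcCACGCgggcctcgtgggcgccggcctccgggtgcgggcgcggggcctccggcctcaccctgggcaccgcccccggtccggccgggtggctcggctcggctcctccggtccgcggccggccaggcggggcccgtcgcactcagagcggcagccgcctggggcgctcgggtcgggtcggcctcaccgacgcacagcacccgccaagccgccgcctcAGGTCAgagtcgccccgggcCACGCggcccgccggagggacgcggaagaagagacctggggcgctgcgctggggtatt
The Ppara region held 3 GCGTG matches, all on the minus strand, and no half-site. The Ppard region held GCGTG at 9 to 5 bases before the start, directly followed by TGACNNNGC, and the Pparg region held AGGTCA at 28 to 23 bases before the start and 2 GCGTG matches. GCGTG occurs in 32.4% of the 32851 promoters searched, AGGTCA in 16.3%, TGACNNNGC in 12.4%, DR1 in 0.0396% and DR4 in 0.0152%. Neither repeat was found in the 13 regions. The match positions describe these letters only. Pparg has 3 starts in this set, and counts per gene add them together.

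On GRCm38 the PPAR genes lie at chr15:85734983-85802819 (Ppara), chr6:115360951-115490399 (Pparg) and chr17:28232700-28301474 (Ppard), all on the plus strand. The other genes lie at chr2:27676440-27762957 (Rxra), chr16:38248323-38294824 (Nr1i2), chr1:171213970-171220701 (Nr1i3), chr10:89454234-89533585 (Nr1h4), chr2:163506808-163572910 (Hnf4a), chr12:35497974-35535038 (Ahr) and chr2:75675513-75704641 (Nfe2l2). In 8 of the 10 no exon base is shared with another annotated gene. Nr1i3 shares 74.9% of its exon bases with Tomm40l on the other strand, and Ahr shares 2.06% with Gm48236. The libraries were not stranded, so reads from shared bases cannot be told apart and the level of Nr1i3 is uncertain.

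Library totals ran from 14456524 to 25778125 counts, and the 10 genes had 207 to 19249 counts in a library. The 9 hepatocyte markers found in the table were all detected and summed to 58600 to 144000 CPM over the 16 livers. Levels in CPM, counts scaled to a common library size, use TMM factors, and mean ± SD is over the 4 mice of a group. Levels of different genes were set side by side only per kilobase of exon (RPKM), without Nr1i3. In CD_vehicle livers Hnf4a was at the top (138 ± 23.7 RPKM), followed by Rxra (71.4 ± 20.5), Nr1h4 (40.3 ± 3.19), Nfe2l2 (30.5 ± 4.89), Nr1i2 (27.1 ± 3.44) and Ppara (17.3 ± 0.831). Ahr (8.03 ± 0.724 RPKM), Pparg (5.98 ± 1.29) and Ppard (4.05 ± 0.585) were lower. In this group the ranges of Nfe2l2 and Nr1i2 overlapped, as did those of Pparg and Ppard, and the other neighbours were apart. In CD_PFOA, HFD_PFOA and HFD_vehicle livers Hnf4a and Rxra were again at the top and Ppard was last, but Ppara, at 31.3 ± 1.65, 33.9 ± 2.94 and 29.1 ± 3.98 RPKM, overlapped with Nr1i2 in each of these 3 groups. Hnf4a stood above 98.1% of the tested genes in RPKM in CD_vehicle livers and Ppard above 63.1%.

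**Figure D1:**
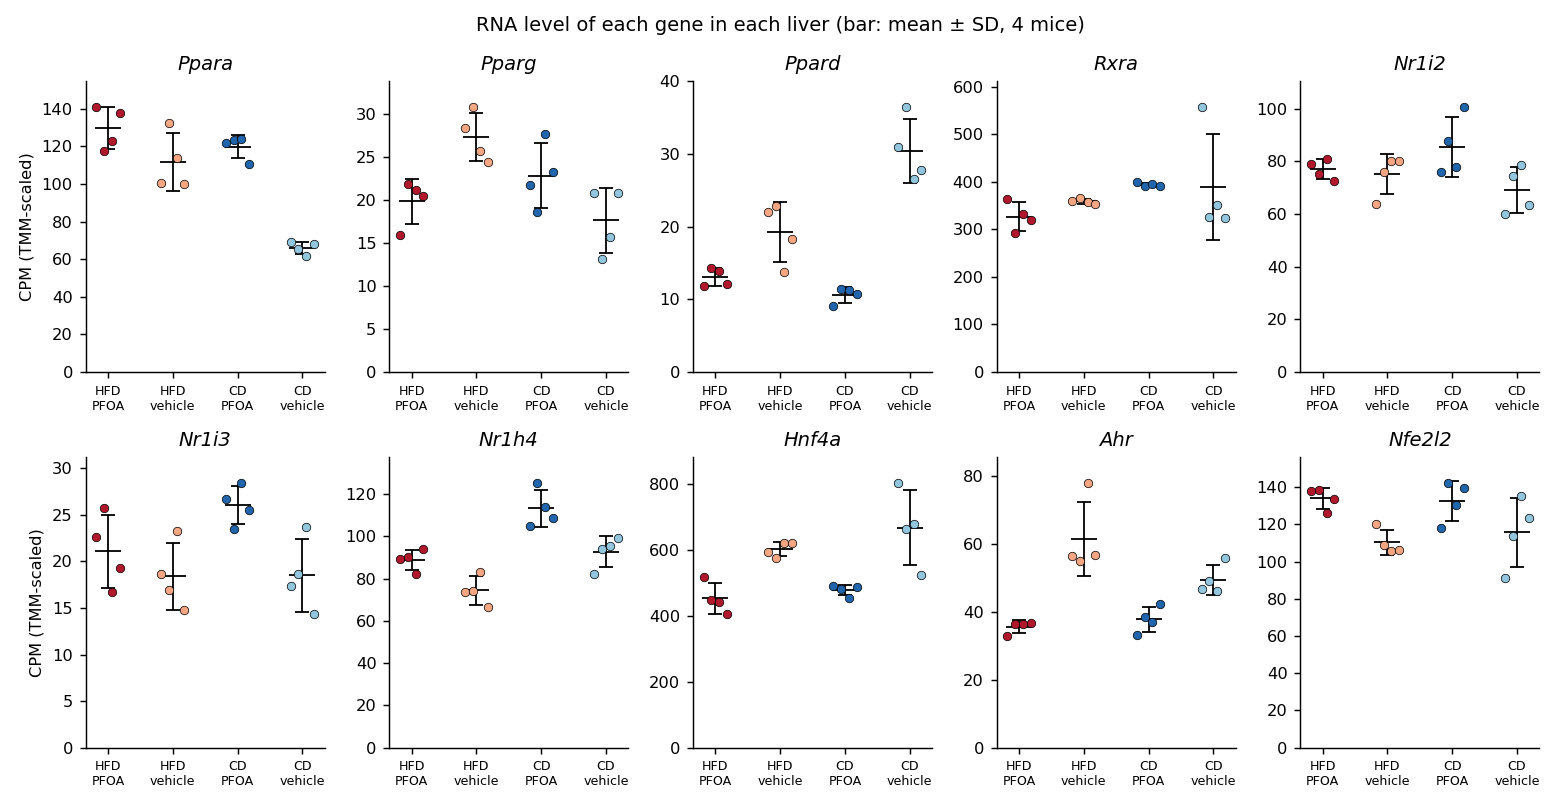
TMM-scaled CPM of each of the 10 genes on a linear axis from 0, in HFD_PFOA, HFD_vehicle, CD_PFOA and CD_vehicle livers. Each point is a mouse and the bars are mean ± SD (n = 4): Ppara lay between 61.97 and 69.05 CPM in CD_vehicle livers and at 99.8 CPM or more in the other livers, and Ppard reached 26.5 CPM or more only in CD_vehicle livers.

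On the control diet, PFOA changed the RNA of 7 of the 10 genes. Ppara, Nr1i2, Nr1i3 and Nr1h4 rose and Ppard, Hnf4a and Ahr fell (edgeR quasi-likelihood test, adjusted p under 0.05 over 14998 genes). The same test called 24.4% of all tested genes in this comparison, 11.8% higher and 12.6% lower (1763 and 1893 genes, against 2160 and 1376 with library totals in place of TMM). For 5 of the 10 genes the 4 CD_PFOA and the 4 CD_vehicle values did not overlap, against 22.7% of tested genes. The changes were small except for Ppara and Ppard: the median of the absolute log2 fold changes was 0.38 over the 10 genes and 0.33 over all tested genes. A pair of CD_vehicle libraries stood apart from their group: CD_vehicle 1 had the lowest summed hepatocyte markers (106000 CPM, against 136000 to 144000 in the others), and CD_vehicle 4 had summed B cell markers of 326 CPM, against 8.52 to 14.5. Without both, 4 of the 10 were called with PFOA on control diet (Ppara, Pparg, Ppard and Hnf4a). Without a low-count filter, or with the compared groups alone, 5 were called, Nr1i2 and Nr1h4 being lost. Calls over all genes fell in these settings too, from 3656 to 3403 and 2602 in that order.

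On the high-fat diet, PFOA lowered 4 of the 10 genes, Pparg, Ppard, Hnf4a and Ahr, and none was called higher. With the compared groups alone, and without both CD_vehicle 1 and 4, 6 of the 10 were called, Nr1h4 and Nfe2l2 being added as higher. Calls over all genes rose in these settings too, from 2476 to 3411 and 3106 in that order. With all libraries in the fit the background was 16.5% of tested genes called, 8.6% higher and 7.91% lower. In 4 of the 10 the HFD_PFOA and HFD_vehicle values did not overlap, against 25.3% of tested genes. The high-fat diet under vehicle raised Ppara and Pparg and lowered Ppard and Nr1h4, 4 of 10 called against 10.4% of tested genes (5.19% higher, 5.21% lower, 779 and 782 genes, against 2052 and 288 with library totals), with 3 of 10 not overlapping against 14.5%. With library totals 4 of the 10 were again called, but 4 were higher and 0 lower: Ppara, Pparg, Nr1i2 and Ahr. Between the diets under PFOA edgeR called 0 of 10, against 0.06% of tested genes (0.0467% higher, 0.0133% lower), with 1 of 10 at an unadjusted p under 0.05 and 1 (Nr1h4) called by DESeq2. In 3 of the 10 (Ppard, Rxra and Nr1h4) the HFD_PFOA and CD_PFOA values did not overlap, against 7.68% of tested genes. CD_vehicle livers are the baseline of both the PFOA comparison on control diet and the diet comparison under vehicle, and HFD_vehicle livers enter both the diet comparison and the PFOA comparison on high-fat diet, so these results are not independent of each other.

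**Figure D2:**
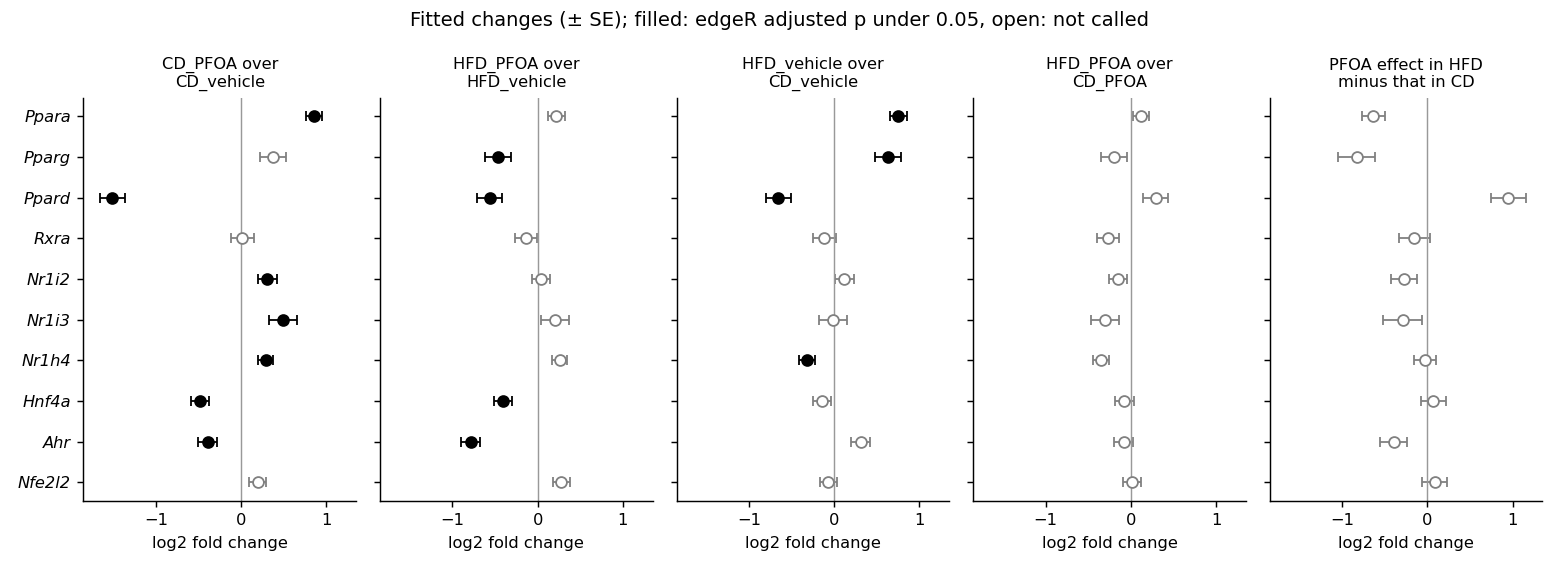
Log2 fold change ± SE of the 10 genes in the 4 comparisons between groups and, in the last panel, the difference between the PFOA effect on high-fat and on control diet. Filled points passed edgeR's adjusted p of 0.05: there are 7, 4, 4, 0 and 0 of them from left to right.

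Ppara, the receptor that drives fatty acid oxidation genes, had levels in each of the 3 exposed or high-fat groups that lay above all CD_vehicle livers. It had 122, 123.5, 123.7 and 110.5 CPM in CD_PFOA livers, against 69.05, 65.6, 61.97 and 68.2 CPM in CD_vehicle livers. All CD_PFOA values were above all CD_vehicle values, 1.81-fold higher with PFOA (log2 fold change ± SE of 0.86 ± 0.097, edgeR adjusted p = 1.81e-06). HFD_PFOA livers had 140.7, 117.8, 122.9 and 138 CPM, against 100.4, 132.4, 113.7 and 99.8 CPM in HFD_vehicle livers. These ranges overlapped and the difference was not called (0.22 ± 0.096, edgeR adjusted p = 0.133), but it was without HFD_vehicle 2, the highest of its group (0.31, edgeR adjusted p = 0.0329). Between the diets under vehicle, Ppara rose 1.68-fold in HFD_vehicle livers over CD_vehicle livers, with no overlap (0.75 ± 0.096, edgeR adjusted p = 1.25e-04). It ranked 28 by p among all 14998 genes in that comparison. Both called rises of Ppara held under all 22 alternatives run, at 0.83 to 0.95 for PFOA on control diet and 0.66 to 0.97 for the diet.

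Ppard, a PPAR form expressed in many tissues, fell where Ppara rose. Its levels were 9.10, 11.5, 11.3 and 10.7 CPM in CD_PFOA livers, against 31.0, 36.4, 26.5 and 27.9 CPM in CD_vehicle livers. The groups were far apart, and Ppard was 2.86-fold lower with PFOA (at -1.51 ± 0.15, edgeR adjusted p = 3.49e-07). On high-fat diet it had 11.9, 14.4, 13.9 and 12.1 CPM in HFD_PFOA livers, against 22.1, 22.8, 13.8 and 18.3 CPM in HFD_vehicle livers. It fell 1.48-fold there although HFD_vehicle 3 lay within the HFD_PFOA range (-0.56 ± 0.15, edgeR adjusted p = 0.0114). Without HFD_vehicle 2 that call was lost (-0.48, edgeR adjusted p = 0.0515). The diet alone also lowered Ppard, by 1.58-fold in HFD_vehicle over CD_vehicle livers (-0.66 ± 0.15, edgeR adjusted p = 0.00676). Scaling by library totals, which shifts the median of all genes by 0.22 log2 in this comparison, gave -0.43 and edgeR adjusted p = 0.0603.

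Pparg, the receptor of fat storage that hepatocytes express at a low level and adipocytes at a high level, rose with the diet and fell when PFOA was added to it. HFD_vehicle livers had 28.4, 30.8, 25.8 and 24.4 CPM, against 20.8, 13.2, 15.8 and 20.9 CPM in CD_vehicle livers. The groups did not overlap (1.55-fold, log2 fold change 0.63 ± 0.15, edgeR adjusted p = 0.0124). HFD_PFOA livers had 15.97, 21.9, 21.2 and 20.5 CPM, all below the HFD_vehicle livers (-0.46 ± 0.15, edgeR adjusted p = 0.0446). This second call lies near the threshold: it was lost on leaving out CD_PFOA 1 or 4, any HFD_PFOA library, or HFD_vehicle 1, 2 or 3, with log2 fold changes of -0.51 to -0.37 and edgeR adjusted p of 0.0513 to 0.141. CD_PFOA livers had 21.8, 18.6, 27.7 and 23.3 CPM, overlapping with the CD_vehicle livers (0.37 ± 0.15, edgeR adjusted p = 0.0878), and the rise was called without CD_PFOA 2 (0.46), CD_vehicle 1 (0.46) or CD_vehicle 4 (0.46). Macrophage and stellate cell markers moved with the diet too: 5 of 11 and 5 of 9 rose in HFD_vehicle over CD_vehicle livers. Of all tested genes, 5.19% were called higher there. The part of these markers in the rise of Pparg was not tested. Of 5 adipocyte markers Lep had 0 counts in all 16 libraries and a single marker had enough counts to test, summing to 0.728 to 5.64 CPM in HFD_vehicle livers and 0.234 to 6.76 CPM in CD_vehicle livers.

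Per kilobase, the makeup of the PPAR family differed between the groups. Ppara made up 77.4 ± 2.68% of the summed PPAR RPKM in CD_PFOA livers, 79.9 ± 3.24% in HFD_PFOA livers, 71.0 ± 2.56% in HFD_vehicle livers and 63.3 ± 1.55% in CD_vehicle livers. The share of Ppard was 3.51 ± 0.367%, 4.12 ± 0.604%, 6.27 ± 1.26% and 14.9 ± 2.34% in the same order, and no CD_vehicle liver overlapped with any other group. The ratio of Ppara to Ppard was 20.2 to 26.3 in CD_PFOA livers and 16.1 to 23.2 in HFD_PFOA livers, against 8.92 to 16.2 in HFD_vehicle livers and 3.53 to 4.80 in CD_vehicle livers. These shares restate the changes of the single genes on a common scale and were given no test of their own.

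**Figure D3:**
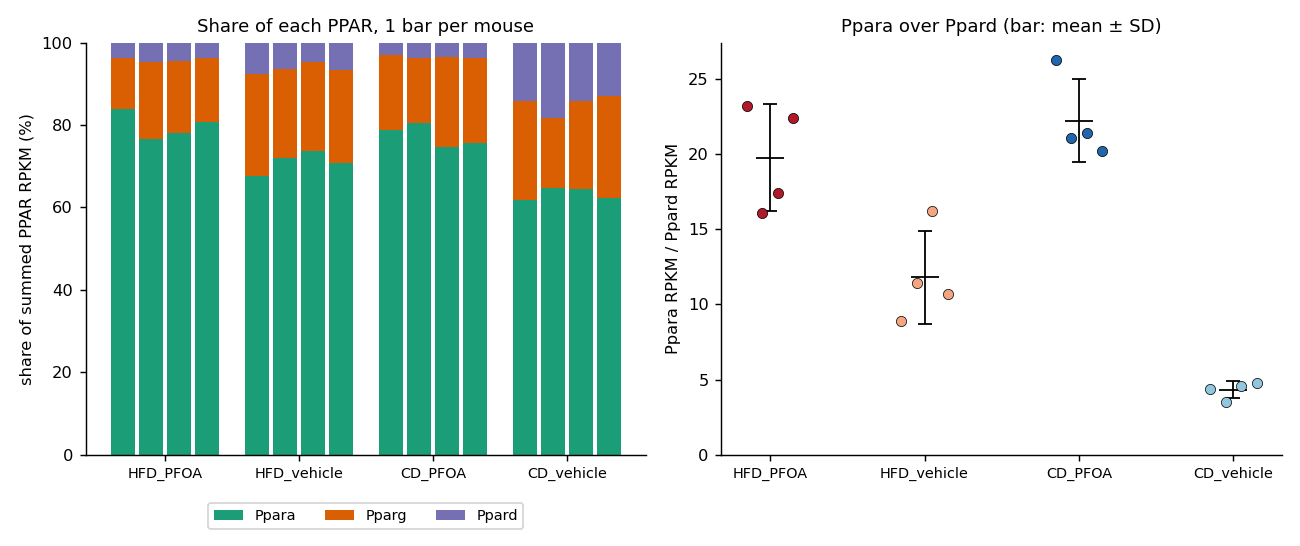
Left, share of Ppara, Pparg and Ppard in the summed PPAR RPKM, with a bar for each mouse in HFD_PFOA, HFD_vehicle, CD_PFOA and CD_vehicle livers. Right, Ppara RPKM over Ppard RPKM for each mouse with mean ± SD (n = 4): CD_vehicle livers lay at 3.53 to 4.80, below all others.

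Rxra, the partner shared by the PPARs, PXR, CAR and FXR, was not called in any comparison. It had 398.8, 390.6, 395 and 391 CPM in CD_PFOA livers, against 556.5, 326, 352 and 324 CPM in CD_vehicle livers. CD_vehicle 1 stood far above its group, and the log2 fold change was 0.02 ± 0.13 (edgeR adjusted p = 0.952). Without that library it was 0.24 and was called (edgeR adjusted p = 0.0376). HFD_PFOA livers had 292 to 365 CPM and HFD_vehicle livers 354 to 366 CPM (-0.14 ± 0.13, edgeR adjusted p = 0.563). The ratio of Ppara to Rxra RPKM was 0.433 ± 0.0218 in CD_PFOA, 0.566 ± 0.0374 in HFD_PFOA, 0.442 ± 0.0549 in HFD_vehicle and 0.254 ± 0.0550 in CD_vehicle livers.

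The drug-sensing receptors PXR and CAR rose slightly with PFOA on the control diet. Nr1i2 had 75.8, 87.7, 77.9 and 100.4 CPM in CD_PFOA livers, against 59.9, 74.5, 78.4 and 63.4 CPM in CD_vehicle livers. The ranges overlapped and the rise was 1.24-fold (log2 fold change 0.31 ± 0.11, edgeR adjusted p = 0.0448). This call was kept in 8 of 22 alternatives. It was lost on leaving out CD_PFOA 2 or 4, any HFD_PFOA library, HFD_vehicle 2, 3 or 4, or CD_vehicle 1 or 4, at log2 fold changes of 0.22 to 0.31 and edgeR adjusted p of 0.0506 to 0.176. HFD_PFOA livers had 72.5 to 81.0 CPM and HFD_vehicle livers 63.96 to 80.2 CPM (0.04 ± 0.11, edgeR adjusted p = 0.883). The diet difference under vehicle was not called either (0.12 ± 0.11, edgeR adjusted p = 0.560), except with library totals (0.34, edgeR adjusted p = 0.0324).

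Nr1i3 had 26.7, 23.5, 28.4 and 25.6 CPM in CD_PFOA livers, against 17.4, 18.7, 23.7 and 14.3 CPM in CD_vehicle livers. Only CD_vehicle 3 reached into the CD_PFOA range, and the rise was 1.41-fold (0.49 ± 0.16, edgeR adjusted p = 0.0312). It was no longer called without CD_PFOA 1, 3 or 4 or CD_vehicle 1, 2 or 4, at 0.38 to 0.50 and edgeR adjusted p of 0.0543 to 0.0906. In HFD_PFOA livers Nr1i3 had 16.8 to 25.8 CPM, against 14.8 to 23.3 CPM in HFD_vehicle livers (0.20 ± 0.16, edgeR adjusted p = 0.469). Tomm40l, which shares most exon bases of Nr1i3, had 4.90 ± 1.11 CPM in CD_PFOA and 3.22 ± 0.841 CPM in CD_vehicle livers (0.61 ± 0.25, edgeR adjusted p = 0.0889). It rose with PFOA on high-fat diet (1.15 ± 0.26, edgeR adjusted p = 0.00387) and fell with the diet under vehicle (-0.86 ± 0.26, edgeR adjusted p = 0.0425). The part of Tomm40l in the Nr1i3 counts was not tested.

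Nr1h4, the bile acid receptor, rose with PFOA on control diet and fell with the high-fat diet under vehicle. It had 104.9, 125, 114 and 109 CPM in CD_PFOA livers, against 82.2, 94.2, 95.6 and 99.1 CPM in CD_vehicle livers, with no overlap (1.22-fold, log2 fold change 0.29 ± 0.089, edgeR adjusted p = 0.0231). The call was lost without CD_PFOA 2 (0.23), CD_PFOA 3 (0.28) or CD_vehicle 1 (0.23), without a low-count filter (0.30, edgeR adjusted p = 0.0565) and in the fit of the compared groups alone (0.30, edgeR adjusted p = 0.0652). HFD_PFOA livers had 89.4, 90.06, 82.2 and 93.9 CPM, against 73.6, 74.3, 83.1 and 66.7 CPM in HFD_vehicle livers. A single HFD_vehicle liver lay within the HFD_PFOA range, and the difference was not called (0.26 ± 0.09, edgeR adjusted p = 0.0564). It was called by DESeq2 (0.26, adjusted p = 0.0348), in the edgeR fit of the compared groups alone (0.25, adjusted p = 0.0320), and without HFD_vehicle 3 (0.31) or CD_vehicle 1 (0.26). The diet lowered Nr1h4 under vehicle (-0.32 ± 0.09, edgeR adjusted p = 0.0285). That fall was not called without HFD_vehicle 1, 2 or 4 or CD_vehicle 2, 3 or 4, at -0.32 to -0.27 and edgeR adjusted p of 0.0533 to 0.112. Nor was it called without a low-count filter (-0.31, edgeR adjusted p = 0.0752), with the compared groups alone (-0.29, edgeR adjusted p = 0.113) or with library totals (-0.10, edgeR adjusted p = 0.506). Under PFOA the diet difference in Nr1h4 was of like size, -0.35 ± 0.089, and ranked 96 by p, but was not called (edgeR adjusted p = 0.140).

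Hnf4a, the most abundant of the 10 per kilobase, fell with PFOA on both diets. It had 490.1, 480.5, 455 and 486 CPM in CD_PFOA livers, against 802.6, 665, 679 and 523 CPM in CD_vehicle livers. All CD_PFOA values lay below all CD_vehicle values, 1.40-fold lower (at -0.48 ± 0.11, edgeR adjusted p = 0.00234). HFD_PFOA livers had 518, 449, 441 and 406 CPM, against 595, 576, 620.8 and 620.2 CPM in HFD_vehicle livers, again with no overlap (1.33-fold lower, -0.41 ± 0.11, edgeR adjusted p = 0.0106). Both falls were called in all 22 alternatives, at -0.58 to -0.38 on control diet and -0.48 to -0.36 on high-fat diet. The difference between the PFOA effects was 0.07 ± 0.15. Of all tested genes, 12.6% were called lower with PFOA on control diet and 7.91% on high-fat diet. Hepatocyte markers fell in the same comparisons: 7 of 9 tested in CD_PFOA over CD_vehicle and 8 of 9 in HFD_PFOA over HFD_vehicle livers. Their summed level was 66400 to 82900 CPM in CD_PFOA livers, 58600 to 71100 in HFD_PFOA, 86100 to 101000 in HFD_vehicle and 106000 to 144000 in CD_vehicle livers. Its part in the fall of Hnf4a was not tested, and in bulk tissue fewer cells of a type and less RNA per cell cannot be told apart.

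Ahr, the receptor for dioxins and other aromatic ligands, fell with PFOA on both diets. HFD_PFOA livers had 32.8, 36.3, 36.5 and 36.9 CPM, against 56.4, 54.9, 77.9 and 56.7 CPM in HFD_vehicle livers. The groups were well apart, 1.72-fold lower with PFOA (at -0.79 ± 0.11, edgeR adjusted p = 4.21e-05), and the call held in all 22 alternatives at -0.84 to -0.65. CD_PFOA livers had 33.4, 38.5, 37.1 and 42.3 CPM, against 46.8, 49.1, 46.2 and 55.9 CPM in CD_vehicle livers, also with no overlap (-0.39 ± 0.11, edgeR adjusted p = 0.0145). Without CD_PFOA 1 this fall was -0.33 (edgeR adjusted p = 0.0563), and with library totals -0.31 (edgeR adjusted p = 0.0620). The difference between the 2 falls was -0.40 ± 0.16 and not called (edgeR adjusted p = 0.328). Ahr in HFD_vehicle over CD_vehicle livers was 0.31 ± 0.11 (edgeR adjusted p = 0.0823), but it was called without CD_vehicle 4 (0.38, edgeR adjusted p = 0.0342) and with library totals (0.52, edgeR adjusted p = 0.00508).

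Nfe2l2, the gene of NRF2, was not called in any comparison. It had 118 to 142 CPM in CD_PFOA livers, against 91.3 to 135 CPM in CD_vehicle livers (0.19 ± 0.10, edgeR adjusted p = 0.190), and library totals in place of TMM gave 0.28 and a call (edgeR adjusted p = 0.0499). HFD_PFOA livers had 137.7, 138.6, 126 and 133.5 CPM, all above the 120.4, 109, 105.9 and 106.2 CPM of HFD_vehicle livers (0.28 ± 0.10, edgeR adjusted p = 0.0727). That difference was called without CD_vehicle 1 (edgeR adjusted p = 0.0199) and when the fit held these 2 groups alone (edgeR adjusted p = 0.0109).

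Whether PFOA acted differently by diet was tested as an interaction, the PFOA effect on high-fat diet minus that on control diet. edgeR called 0 of the 10 genes (0.207% of tested genes, 0.0667% higher and 0.14% lower), with 4 of 10 at an unadjusted p under 0.05. The 3 PPAR genes came nearest to the threshold: Ppara at -0.64 ± 0.14 (edgeR adjusted p = 0.0558), Ppard at 0.95 ± 0.21 (edgeR adjusted p = 0.0639) and Pparg at -0.83 ± 0.22 (edgeR adjusted p = 0.116). They ranked 38, 51 and 142 by p among 14998 genes. All 3 were called by DESeq2, where they had adjusted p of 0.00204, 0.00713 and 0.0253 in that order, and by edgeR without a low-count filter. All 3 were also called without CD_vehicle 4, the library with 326 CPM of B cell markers, at edgeR adjusted p of 0.0197 for Ppara, 0.0198 for Ppard and 0.0317 for Pparg. Without CD_vehicle 1 Ppara alone was called (edgeR adjusted p = 0.0257). The share of 0.207% holds for the edgeR fit with all libraries only. Interaction calls over all genes also rose in some alternatives, from 31 to as many as 352 leaving out a single library and 652 over all alternatives. In size, Ppara ran from -0.77 to -0.55, Ppard from 0.82 to 1.04 and Pparg from -1.11 to -0.72 over 21 alternatives. Of the other 7 genes, Ahr was the largest in size, and none was called under any alternative.

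Genes known as targets of these factors were counted beside the factors' own RNA, and some genes stand in more than a single list. Of all tested genes, 24.4% were called with PFOA on control diet, 16.5% with PFOA on high-fat diet and 10.4% with the diet under vehicle. Of 17 PPARA targets, 17 rose with PFOA on control diet and 16 of 17 on high-fat diet, with medians of 1.71 and 1.48 log2, against medians of -0.0024 and 0.00752 over all tested genes. The omega-hydroxylase Cyp4a10 had 6640 ± 681 CPM in CD_PFOA and 414 ± 77.9 CPM in CD_vehicle livers, and 6210 ± 766 CPM in HFD_PFOA and 267 ± 63.4 CPM in HFD_vehicle livers. HFD_vehicle livers, in which Ppara RNA was 1.68-fold above CD_vehicle livers, had 0 of 17 PPARA targets higher and 1 lower, Cyp4a10 (-0.63 ± 0.16, edgeR adjusted p = 0.0129). Of 8 PPARG targets, 6 rose and 1 fell with the diet under vehicle, where Pparg itself rose. The lipid droplet gene Cidec had 120 ± 15.8 CPM in HFD_vehicle and 18.1 ± 10.2 CPM in CD_vehicle livers. With PFOA, 5 of 8 rose and 0 fell on control diet, and 5 rose and 2 fell on high-fat diet, where Pparg fell. The 2 that fell there were the droplet coat genes Plin4 (-2.17 ± 0.30) and Plin5 (-0.41 ± 0.12), named after their values were seen, while Mogat1, an acyltransferase of triglyceride synthesis, rose (2.75 ± 0.21). The PPARG targets that rose with PFOA differed in part between the diets. Cidec rose on control diet (2.56 ± 0.29) and was not called on high-fat diet (0.18 ± 0.27, edgeR adjusted p = 0.745). Fabp5 was not called on control diet (-0.64 ± 0.27, edgeR adjusted p = 0.0907) and rose on high-fat diet (1.94 ± 0.29). Fabp5 was the target that fell with the diet under vehicle (-2.45 ± 0.291, edgeR adjusted p = 7.06e-05). It had 12.2 ± 4.31 CPM in CD_PFOA, 13.4 ± 2.14 in HFD_PFOA, 3.48 ± 1.07 in HFD_vehicle and 19.1 ± 6.27 in CD_vehicle livers. The interaction was called for Cidec (-2.38 ± 0.39, edgeR adjusted p = 0.016) and for Fabp5 (2.58 ± 0.39, edgeR adjusted p = 0.00996). Several genes of this list, among them Cd36 and Plin5, are also known to respond to PPARA.

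**Figure D4:**
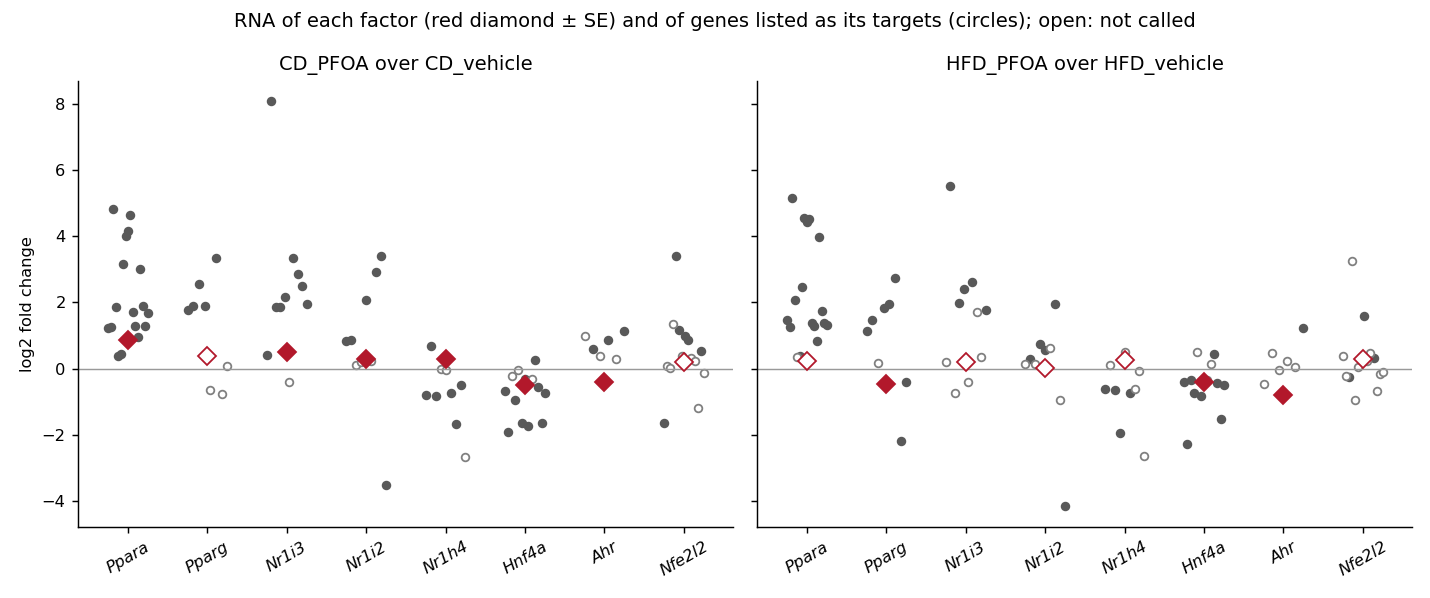
Log2 fold change with PFOA of 8 factors (red diamonds ± SE) and of the genes listed as targets of each (circles, in order of symbol), on control diet (left) and high-fat diet (right). Filled symbols passed edgeR's adjusted p of 0.05: the factors lie between -0.79 and 0.86 while targets reach 8.07, for Cyp2b10 on control diet.

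Of 10 CAR targets, 9 rose with PFOA on control diet and 5 on high-fat diet, and none fell. Cyp2b10, the classic CAR-induced P450, had 315 ± 68.3 CPM in CD_PFOA and 1.18 ± 0.714 CPM in CD_vehicle livers. Of 9 tested PXR targets, 5 rose and 1 fell on control diet and 4 rose and 1 fell on high-fat diet, the faller being the transporter Slco1a4 in both. Cyp3a11, the main PXR-induced P450, was 4.18-fold higher with PFOA on control diet and 1.49-fold higher on high-fat diet, and its interaction was called (-1.49 ± 0.19, edgeR adjusted p = 0.00244). It had 4620 ± 267 CPM in CD_PFOA, 1100 ± 138 in CD_vehicle, 5500 ± 298 in HFD_PFOA and 3700 ± 846 in HFD_vehicle livers. The diet under vehicle thus raised Cyp3a11 as well, 3.35-fold (1.74 ± 0.135, edgeR adjusted p = 5.09e-07). In that comparison 4 of the 9 PXR targets rose and 0 fell, against 10.4% of tested genes called, while Nr1i2 was not called. Of 9 tested FXR targets, 1 rose and 5 fell on control diet, and 0 rose and 4 fell on high-fat diet. Nr1h4 itself was higher on control diet and not called on high-fat diet. The riser was Abcb4, the canalicular phospholipid transporter (0.69), and its interaction was called (-0.57 ± 0.11, edgeR adjusted p = 0.0392). Abcb4 also rose with the diet under vehicle (0.745 ± 0.0789, edgeR adjusted p = 2.31e-05). Nr0b2, the FXR-induced repressor SHP, had 27.5 ± 2.21 CPM in CD_PFOA and 45.5 ± 12.5 CPM in CD_vehicle livers, and 41.0 ± 4.59 CPM in HFD_PFOA and 67.9 ± 6.12 CPM in HFD_vehicle livers. The list holds genes that FXR is known to lower as well as genes it is known to raise.

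Of 13 HNF4A targets, 1 rose and 9 fell with PFOA on each diet, in the comparisons in which Hnf4a fell. Apob, Apoa1 and Ttr are also among the hepatocyte markers, so the counts of targets and of markers are not separate. Apoc3, an apolipoprotein of triglyceride-rich particles, had 877 ± 178 CPM in CD_PFOA and 1680 ± 257 CPM in CD_vehicle livers, and 691 ± 49.5 CPM in HFD_PFOA and 1140 ± 51.0 CPM in HFD_vehicle livers. Of 6 tested AHR targets, 3 rose and 0 fell on control diet and 1 rose and 0 fell on high-fat diet. Ahr RNA itself fell on both diets. Cyp1a2, a P450 controlled by AHR, had 257 ± 45.5 CPM in CD_PFOA and 169 ± 58.5 CPM in CD_vehicle livers (0.61 ± 0.19, edgeR adjusted p = 0.0227). On high-fat diet its difference was not called (0.485 ± 0.188, edgeR adjusted p = 0.0892). Ugt1a6a rose with PFOA on control diet (1.14 ± 0.24, edgeR adjusted p = 0.00147) and on high-fat diet (1.23 ± 0.243, edgeR adjusted p = 0.00118). The AHR targets Cyp1a1, Cyp1b1 and Tiparp were not called with PFOA on either diet. Of 14 NRF2 targets, 5 rose and 1 fell on control diet and 2 rose and 1 fell on high-fat diet. The shares called over all tested genes were 24.4% and 16.5%. Nqo1, a quinone reductase listed for both AHR and NRF2, had 17.6 ± 2.30 CPM in CD_PFOA and 9.65 ± 2.59 CPM in CD_vehicle livers (0.87 ± 0.18, edgeR adjusted p = 0.00145), and its difference on high-fat diet was not called (0.24 ± 0.18, edgeR adjusted p = 0.437).

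Among 29 tested partners, chaperones and coregulators of these factors, 7 rose and 4 fell with PFOA on control diet and 7 rose and 2 fell on high-fat diet. The background was 24.4% and 16.5% of tested genes called. Hsp90aa1, a chaperone that holds AHR and CAR in the cytosol, had 93.8 ± 10.2 CPM in CD_PFOA and 47.4 ± 8.92 CPM in CD_vehicle livers, and rose 2.24-fold with PFOA on high-fat diet as well (1.16 ± 0.14, edgeR adjusted p = 4.92e-06). Of the coactivators, Ppargc1b rose on control diet (1.61 ± 0.28, edgeR adjusted p = 2.71e-04) and on high-fat diet (1.30 ± 0.28, edgeR adjusted p = 0.00237). Ppargc1a fell on both (-1.14 ± 0.22, edgeR adjusted p = 7.17e-04, and -0.76 ± 0.22, edgeR adjusted p = 0.0201). Bach1, a repressor of NRF2 targets, rose on both as well (0.50 ± 0.12 and 0.62 ± 0.12). The corepressor Nrip1 was called on high-fat diet (0.64 ± 0.11) and was at 0.28 ± 0.11 on control diet (edgeR adjusted p = 0.0744). The diet under vehicle raised 3 and lowered 1 of the 29, against 10.4% of tested genes called. Among the 3 were the small MAF partners of NRF2, Mafk (0.63 ± 0.14) and Maff (1.42 ± 0.35).

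Of 32 tested nuclear receptors outside the set, 5 rose and 8 fell with PFOA on control diet and 4 rose and 4 fell on high-fat diet. With the diet under vehicle 2 rose and 3 fell. The shares called over all tested genes were 24.4%, 16.5% and 10.4% in that order. The orphan receptor Nr2f2 rose on both diets (0.75 ± 0.11 on control diet and 0.78 ± 0.11 on high-fat diet) and Nr2f6 fell on both (-0.81 ± 0.10 and -0.53 ± 0.10). The clock repressor Nr1d2 rose on both diets (1.01 ± 0.13 and 0.50 ± 0.13), and the oestrogen receptor Esr1 fell on both, on high-fat diet to 5.15 ± 1.66 CPM in HFD_PFOA livers, against 16.1 ± 1.45 CPM in HFD_vehicle livers.

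The genes whose pattern over the 16 livers was nearest to that of a member were found by the root mean square difference in centred log2 CPM, among 12373 genes. Nearest to Ppara were Tmem56 (0.131 log2), Abcb4 (0.133 log2) and Amotl2 (0.153 log2), where Ppara's own root mean square around its mean was 0.393 log2. Nearest to Ppard were Frmd8, Pde9a and Svil (0.198 to 0.220 log2, own 0.589), and to Pparg Cyr61, Zdhhc8 and Dopey2 (0.152 to 0.173 log2, own 0.310). Cep85, Tgfbr1 and Cd59a lay nearest to Ahr (0.114 to 0.148 log2, own 0.336) and Aldh2, Canx and Tm9sf3 nearest to Hnf4a (0.101 to 0.105 log2, own 0.261). Nr1h4 was nearest to Mpc2, Ndufa5 and Rplp1 (0.104 to 0.108 log2, own 0.235), Nr1i3 to Aldh1a1, Supv3l1 and Ugt2b34 (0.152 to 0.168 log2, own 0.295) and Nr1i2 to Bmpr2, Phf3 and Dlg1 (0.0954 to 0.106 log2, own 0.173). These are descriptions of likeness over libraries that share groups.

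Markers of other liver cells were counted in each comparison, and their part in the changes above was not tested. The background was 24.4% of tested genes called with PFOA on control diet and 16.5% on high-fat diet. With PFOA on control diet, 2 of 9 stellate and 4 of 8 sinusoidal endothelial markers rose, and 1 endothelial marker fell. Of 6 B cell markers 2 were called lower, Igkc and Jchain, but CD_vehicle 4 alone had 326 CPM of summed B cell markers, and the other CD_vehicle livers, at 8.52 to 14.5 CPM, lay within the CD_PFOA range of 5.77 to 22.6 CPM. With PFOA on high-fat diet 2 endothelial markers rose, and 1 stellate and 1 of 6 cholangiocyte markers fell. Summed macrophage markers were at 212 to 484 CPM in CD_PFOA, 350 to 702 in HFD_PFOA, 510 to 651 in HFD_vehicle and 256 to 519 in CD_vehicle livers. Summed stellate markers were at 375 to 495 CPM in CD_PFOA, 440 to 562 in HFD_PFOA, 587 to 665 in HFD_vehicle and 253 to 497 in CD_vehicle livers, and summed cholangiocyte markers at 32.4 to 55.9, 56.0 to 79.4, 125 to 250 and 46.2 to 96.7 CPM in the same order. Summed T and NK cell markers were at 2.49 to 4.17, 3.15 to 4.19, 2.13 to 4.6 and 0.843 to 8.88 CPM in that order, and Lep was the only one of all these markers with 0 counts in all libraries.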

How the data were processed

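RNA of 16 livers was sequenced from non-stranded BGI libraries, per the labels' protocols. The authors deposited raw counts per gene for 53465 genes, of which 25509 were 0 in every library. The submitters' processing notes name featureCounts (Subread 1.6.0), STAR 2.5.2b, Trimmomatic 0.33 and bcl2fastq 2.20.0.422, with the build GRCm38 (mm10). Neither the annotation release nor the assignment of reads shared by overlapping genes is given in the sources used here. Totals were 14456524 to 25778125 counts, libraries of a group differed beyond sampling noise (8.13 to 138 chi-square units per degree of freedom over pairs), and no molecular identifiers are stated. The pairs that held CD_vehicle 1 were at 122.5 to 137.8 units. The highest of the other pairs was CD_vehicle 2 with CD_vehicle 4, at 53.73.

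Genes were filtered with filterByExpr in edgeR 4.0.16 (14998 kept, 99.94% of counts), scaled by TMM and fitted with glmQLFit with a mean for each of the 4 groups (12 residual degrees of freedom, common biological coefficient of variation 0.242). P-values from glmQLFTest were adjusted by Benjamini-Hochberg over all genes tested, and called under 0.05. SE is the absolute log2 fold change over the square root of F. RPKM divides TMM-scaled CPM by the exon union of GENCODE M21 (GRCm38), to which 53360 gene IDs matched without their version, and serves only to set levels of different genes side by side. Promoters come from RefSeq (GRCm38.p6). Likeness used log2(CPM + 0.5) of genes with mean CPM of at least 1. Scripts were tested on simulated data.

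Alternatives were DESeq2 1.42.0, RLE factors, library totals, no filter, a fit of the compared groups alone and leaving out each library. Leaving out CD_vehicle 1 and 4 together was chosen after seeing the data. The members and all gene lists were chosen with earlier results of these data known. Named genes are the 10 members, an index target for each factor, up to 3 listed genes of smallest p among those called in a comparison, and the 3 genes nearest in pattern to each called member; exceptions are stated where they occur.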

Additional observations from a re-analysis of the deposited data

Results flagged for a closer look

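In each group of 4 livers the gap between the most extreme value and its neighbour was set against the whole range of the group (Dixon's test at the 95% level). Of 40 groups checked (10 genes in 4 groups), 4 exceeded it, where chance gives about 1 in 20. Rxra was at 556.5 CPM in CD_vehicle 1, far above the other CD_vehicle livers (gap over range 0.879). Ahr was at 77.94 CPM in HFD_vehicle 3, above its group (0.922), and at 32.83 CPM in HFD_PFOA 1, below its group (0.864). Ppara was at 110.5 CPM in CD_PFOA 4, below its group (0.869). Without HFD_vehicle 3 the fall of Ahr with PFOA on high-fat diet was still called by edgeR, at a log2 fold change of -0.65.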

How the results depend on the processing

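Each library is a separate mouse in a single group, so no paired analysis was run. The labels give no replicate numbers, and the numbers used here merely name the mice. Of 1090 fold changes of the 10 genes under the alternatives, 976 kept their direction and side of the threshold, 50 lost the call, 34 gained it and 30 turned direction. Leaving out single libraries gave 5 to 7 genes called for PFOA on control diet (7 with all libraries), 3 to 6 for PFOA on high-fat diet (4), 3 to 4 for diet under vehicle (4), 0 to 0 for diet under PFOA (0) and 0 to 3 for the interaction (0). Without both CD_vehicle 1 and 4 the counts were 4 for PFOA on control diet, 6 for PFOA on high-fat diet, 4 for diet under vehicle, 1 for diet under PFOA and 3 for the interaction. With the compared groups alone they were 5, 6, 3 and 0 for the first 4 of these, and without a filter 5, 4, 3 and 0. DESeq2 called 1 gene for diet under PFOA and 3 for the interaction, library totals gave 1 for the interaction, and no filter gave 3.

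Every turn of direction was in a difference that was not called. With library totals these were Nr1i2 (-0.00063) for PFOA on high-fat diet, Rxra (0.10), Nr1i3 (0.21), Hnf4a (0.074) and Nfe2l2 (0.15) for diet under vehicle, Hnf4a (0.011) and Ahr (0.011) for diet under PFOA, and Hnf4a (-0.063) and Nfe2l2 (-0.043) for the interaction. Library totals shift the median of all genes by 0.217 log2 for diet under vehicle and -0.126 for the interaction. Without both CD_vehicle 1 and 4, Rxra (0.084) and Nr1i2 (-0.028) turned for diet under vehicle and Nr1h4 (0.0071) for the interaction, and with the compared groups alone Nr1i3 (0.014) for diet under vehicle. Leaving out single libraries, log2 fold changes ran from -0.064 to 0.24 for Rxra with PFOA on control diet and from -0.034 to 0.069 for Nr1i2 with PFOA on high-fat diet. For diet under vehicle they ran from -0.19 to 0.11 for Rxra, from -0.14 to 0.13 for Nr1i3 and from -0.17 to 0.015 for Nfe2l2. For diet under PFOA Nfe2l2 ran from -0.037 to 0.054, and for the interaction Nr1h4 ran from -0.082 to 0.024 and Hnf4a from -0.032 to 0.17. The cause was not tested.

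Over all genes, calls for diet under vehicle were 1561, against 896 with the compared groups alone, 2363 without CD_vehicle 1 and 4, and 881 to 2272 leaving out single libraries. Calls for diet under PFOA were 9, against 179 by DESeq2, 142 higher and 83 lower without a filter, 129 with the compared groups alone, 208 without CD_vehicle 1 and 4, and 1 to 56 leaving out single libraries. Interaction calls were 31, against 223 by DESeq2, 290 without a filter, 652 without CD_vehicle 1 and 4, and 13 to 352 leaving out single libraries.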
